A study of Drosophila melanogaster with 10 samples.

Results

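The 32 genes described here encode proteins of the Drosophila muscle sarcomere or proteins closely tied to it. They were taken as a fixed list of gene names and matched by FlyBase gene ID or name, and all 32 were found among the 14351 genes of the deposited count table. The levels of these genes in a dissected nervous system were read library by library, as a measure of muscle RNA in the tissue, and were compared between injured and uninjured flies with and without injured library 3. Of the 32 genes, 30 exceeded the filter of a mean of 2 TPM in either group and were tested, where TPM is the authors' level per kilobase of transcript, scaled to the mapped reads of the library. TpnC47D and TpnC73F were not.

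The tissue was the ventral nerve cord (VNC), the trunk part of the fly's central nervous system, which holds the motor neurons of legs and wings. It was dissected from adults of w1118, a laboratory strain with white eyes. All flies were of this 1 genotype and were given in the labels as 3 to 10 days old, males and females mixed, and each library came from a pool, for which the labels give 60 to 80 VNCs collected. The study's methods give 60 to 80 as the number of flies injured per replicate, with fewer VNCs used for RNA. For these flies they give a narrower age range, and 3 to 10 days as the range over all experiments. The 5 uninjured libraries came from flies kept without food in agar vials for 5 hr. The 5 injured libraries came from flies whose 6 legs, 2 wings and head had been severed and which then lay on a humid agar plate for 5 hr. Any effect of the axon injury therefore cannot be told apart from an effect of losing these parts or of the different housing. The libraries were made from total RNA depleted of ribosomal RNA, with no poly(A) selection, and the counting was not stated to use strand. The count columns are numbered 1 to 5 within each group, and these numbers are used here as names, since the labels name their replicates in another way and nothing links the 2 sets of names. The libraries held 5146470 to 6640492 gene counts, with medians of 5892483 in uninjured and 6182448 in injured libraries, so that depth was similar in both groups.

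A sarcomere is built from thick filaments of myosin that slide along thin filaments of actin. Tropomyosin and the troponin complex on the thin filament make this sliding depend on calcium, giant elastic proteins link thick filaments to the Z disc, and Z disc proteins anchor the thin filaments. Flies use different actin and troponin C genes in different muscles: Act88F and TpnC4 serve the stretch-activated indirect flight muscle that fills the thorax, while Act79B and TpnC41C are found in the jump and leg muscles. The flight and jump muscles lie beside the VNC in the thorax, and motor axons that leave the VNC end on these and on the leg muscles. In a bulk sample, fewer muscle cells and less RNA per muscle cell cannot be told apart. The 4 muscle actin genes are near-identical in their coding sequence and the troponin C genes are close relatives, so reads may be split among them by the counting, and the levels of single genes of these families are uncertain to that extent.

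None of the 30 tested members passed the test in either direction when all 10 libraries were used (edgeR's quasi-likelihood test, Benjamini-Hochberg adjusted p under 0.01 over 9365 genes), beside 7.55% of all genes tested called higher and 6.13% called lower. DESeq2 and limma-voom also called 0 members. At an unadjusted p under 0.05, edgeR gave 5 members higher and 0 lower, DESeq2 4 higher and 0 lower, and limma-voom 1 higher and 0 lower, and in edgeR 18.5% of all genes were higher and 17.6% lower at that level. The members were instead marked by the spread among the injured libraries. Injured library 3 was the lowest of the injured libraries in 27 of 30 members, and injured library 4 the highest in 28 of 30, against 17.5% and 20.1% of all genes tested. The members that broke this order were Mf, Msp-300, Zasp67 and Argk. Library 3 was named in the question, and library 4 was picked after its values were seen. Most members also moved together, so these counts are a description and not independent observations.

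**Figure D1:**
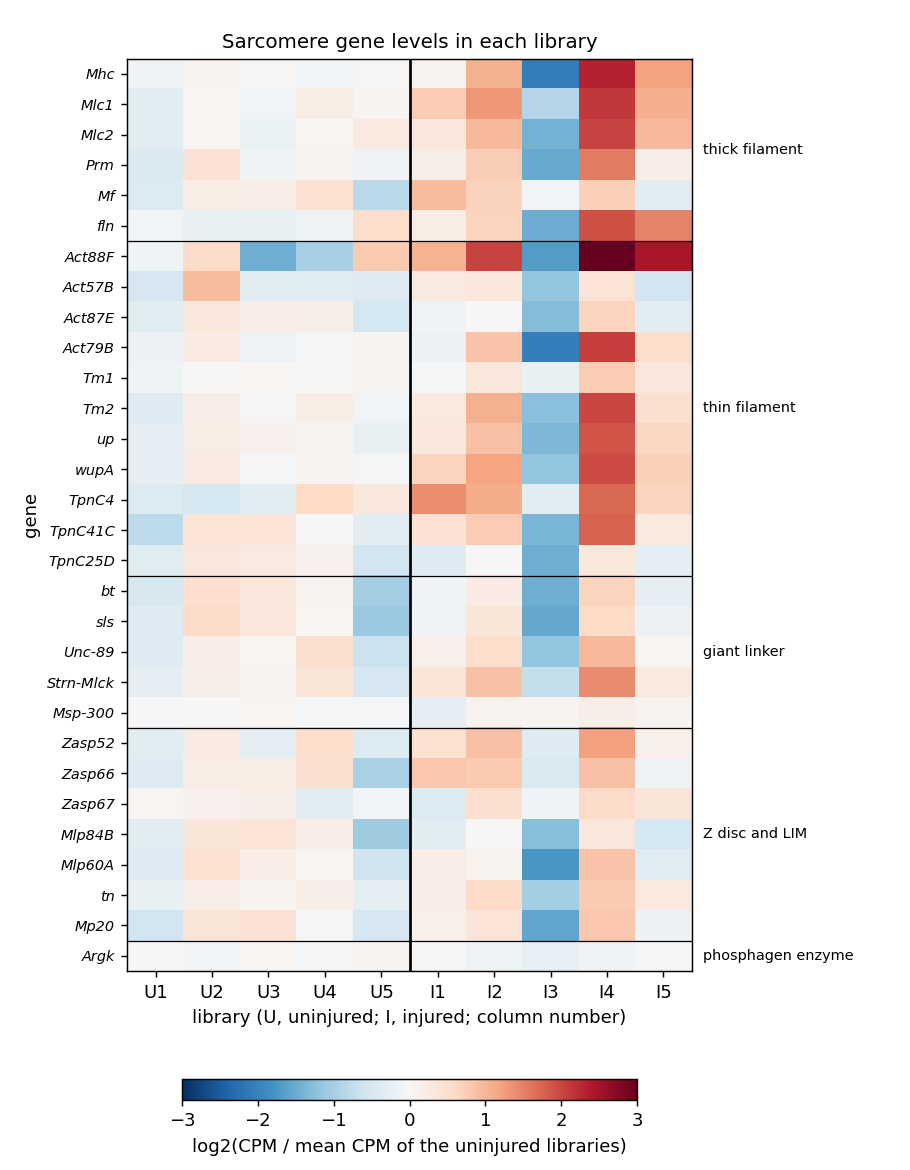
Heat map of the 30 tested members (rows, grouped by role) in the 10 libraries (columns; U, uninjured; I, injured). Colour gives log2 of the CPM over the mean CPM of the uninjured libraries, and injured library 3 is the lowest injured library in 27 rows and injured library 4 the highest in 28.

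Mhc encodes the muscle myosin heavy chain, the motor of the thick filament. Its levels in CPM (gene counts scaled to the library's TMM-normalized total) were 429, 495, 471, 439.6 and 476 in uninjured libraries 1 to 5. They were 499, 962, 111, 2297 and 1072 in injured libraries 1 to 5. The uninjured libraries thus lay within 1.16-fold of each other, while injured library 4 held 20.8-fold the level of injured library 3, and 4 of 5 injured libraries lay above every uninjured library. The means were 462 ± 27.4 CPM (SD, n = 5) and 988 ± 826 CPM (SD, n = 5). The log2 fold change was 1.10 (SE 0.52, edgeR adjusted p = 0.149). Without injured library 3 it was 1.37 (SE 0.32) and passed (adjusted p = 0.00899), and without injured library 4 it was 0.52 (adjusted p = 0.473).

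Mlc2, the regulatory light chain of this myosin, had the highest level per length of the members other than Argk and Msp-300, averaging 124 TPM before and 226 TPM after injury. It lay at 336, 435, 363, 433 and 508 CPM in uninjured libraries 1 to 5. In injured libraries 1 to 5 it lay at 529, 818, 154, 1691 and 815 CPM. The 4 injured libraries other than library 3 were all above the uninjured libraries, and library 3 was below all of them. The log2 fold change was 0.95 (SE 0.43, edgeR adjusted p = 0.129), and 1.20 (SE 0.27, adjusted p = 0.00702) without injured library 3.

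Mlc1, the alkali light chain, followed the same order. Its uninjured levels were 48.3, 63.2, 57.5, 70.5 and 64.1 CPM, and its injured levels were 102, 149, 32.9, 265 and 129 CPM, in the order of the columns. Again 4 injured libraries were above, and 1 below, every uninjured library. The log2 fold change of 1.16 (SE 0.38) had an edgeR adjusted p of 0.0421, which was 0.000975 without injured library 3 and 0.120 without injured library 4.

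The remaining thick filament members covered a wider range of changes. Flightin (fln), which binds myosin in the indirect flight muscle, lay at 29.3, 26.5, 26.3, 27.8 and 44.2 CPM in uninjured libraries and at 36.0, 48.6, 11.03, 117 and 86.7 CPM in injured libraries. Its groups overlapped, and its log2 fold change was 0.96 (SE 0.45, edgeR adjusted p = 0.143; 0.0131 without injured library 3). Paramyosin (Prm), which forms the core of the thick filament, had a log2 fold change of 0.53 (SE 0.39). Myofilin (Mf), another thick filament protein, had 0.47 (SE 0.27). Mf departed from the common order: it was highest in injured library 1 (237 CPM) and lowest in injured library 5 (97.3 CPM). The median log2 fold change of the 6 thick filament members was 0.95.

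Among thin filament genes, the flight muscle actin Act88F differed most between libraries. It stood at 69.8, 113, 27.6, 37.9 and 131 CPM in uninjured libraries 1 to 5. It stood at 155, 308, 23.7, 728 and 415 CPM in injured libraries 1 to 5. The 4 injured libraries other than library 3 exceeded every uninjured library, and the spread was 30.7-fold among injured and 4.73-fold among uninjured libraries. Its log2 fold change of 2.10 (SE 0.67) was the highest of the members and had an edgeR adjusted p of 0.0382. The adjusted p was 0.00382 without injured library 3, 0.112 without injured library 4 and 0.0139 without both.

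Act79B, the actin of the jump and leg muscles, was at 93.4, 125, 94.6, 101 and 110.4 CPM in uninjured libraries and at 93.2, 191, 25.1, 443 and 151 CPM in injured libraries. Injured library 1 lay just under the lowest uninjured library and 3 injured libraries above the highest. The log2 fold change was 0.78 (SE 0.50, edgeR adjusted p = 0.286; 0.0473 without injured library 3). The other muscle actins, Act57B and Act87E, which serve body wall and other muscles, were at -0.03 (SE 0.34) and -0.09 (SE 0.28). Act57B in uninjured library 2 was 113 CPM, beside 41.2 to 46.9 CPM in the other uninjured libraries.

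The share of Act88F in the summed TPM of the 4 muscle actins ranged from 12.8% to 41.9% in uninjured libraries (median 28.5%) and from 26.2% to 65.3% in injured libraries (median 50.6%). It was 29.7, 28.5, 12.8, 16.4 and 41.9% in uninjured and 43.9, 50.6, 26.2, 55.7 and 65.3% in injured libraries 1 to 5. Injured library 3, with the lowest levels of all 4 actins, had a share within the uninjured range, and the other injured libraries lay above that range. Act79B took 31.0% to 43.3% in uninjured and 23.5% to 33.4% in injured libraries. These shares were computed after the levels were seen and are given without a test.

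**Figure D2:**
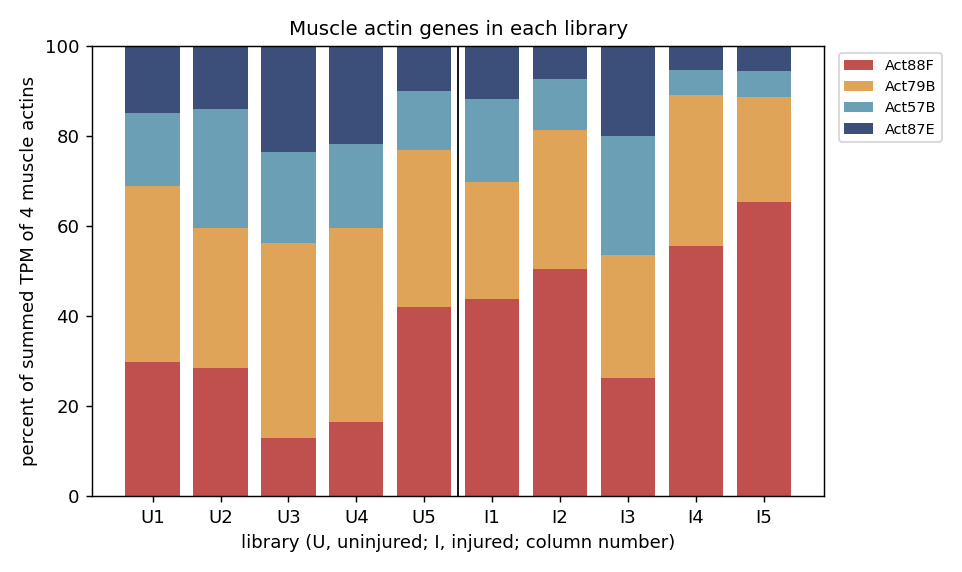
Stacked bars of the percent of the summed TPM of the 4 muscle actin genes that each gene took in each library (U, uninjured; I, injured). Act88F took 12.8% to 41.9% in uninjured libraries and 26.2% to 65.3% in injured libraries.

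Of the troponin C genes, TpnC4 of the flight muscle was at 9.4, 8.7, 9.8, 18.8 and 15.8 CPM in uninjured libraries and at 32.6, 26.8, 10.1, 41.4 and 19.8 CPM in injured libraries. Injured library 3 lay within the uninjured range and the others above it. The log2 fold change was 1.07 (SE 0.33, edgeR adjusted p = 0.0333; 0.00380 without injured library 3 and 0.0920 without injured library 4). TpnC41C of the jump muscle was at 10.2, 22.9, 22.8, 17.4 and 14.04 CPM and then at 23.6, 29.7, 6.8, 59.5 and 21.3 CPM, with overlapping groups and a fitted log2 change of 0.68 (SE 0.42, edgeR adjusted p = 0.267). TpnC25D was at 5.7 to 10.8 CPM in uninjured and 3.1 to 10.7 CPM in injured libraries. TpnC73F held 6 to 15 counts per uninjured and 11 to 23 counts per injured library, and TpnC47D held 1 count in all libraries except uninjured library 2, which held 7. Since no deposited count was below 1, the value 1 may mean that no read was found.

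Tropomyosin and the other troponin subunits regulate the thin filament. Troponin I (wupA) was at 30.6, 44.2, 35.8, 40.4 and 36.0 CPM in uninjured libraries and at 59.4, 85.6, 16.4, 145 and 61.8 CPM in injured libraries, so that injured library 3 alone was below the uninjured range. Its log2 fold change was 0.97 (SE 0.39, edgeR adjusted p = 0.0900; 0.00292 without injured library 3). Troponin T (up) had 0.79 (SE 0.40) and tropomyosin 2 (Tm2) had 0.87 (SE 0.42). Tropomyosin 1 (Tm1), which also encodes cytoplasmic forms used outside muscle, had 0.27 (SE 0.15) and a spread of only 1.97-fold among injured libraries, beside 9.64-fold for Tm2.

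**Figure D3:**
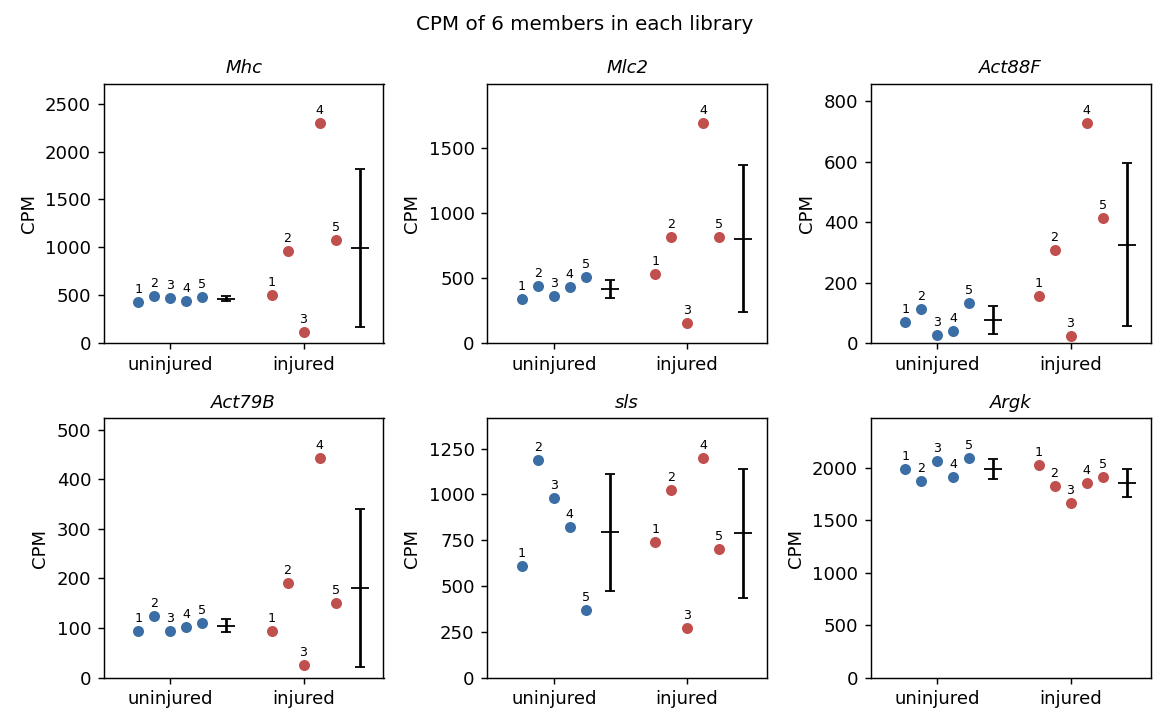
CPM (y axis) of 6 members in each library (points, numbered by column) of the uninjured and injured groups (x axis), with the mean and SD of each group as a bar at its right (n = 5). Mhc, Mlc2, Act88F and Act79B were lowest in injured library 3 and highest in injured library 4, sls overlapped fully between groups, and Argk lay between 1663 and 2092 CPM in all 10 libraries.

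The 5 giant linker members had log2 fold changes from -0.04 to 0.62. Sallimus (sls), a titin-like protein that joins the Z disc to the thick filament, was at 611, 1188, 979.9, 819.8 and 367 CPM in uninjured libraries. In injured libraries it was at 739, 1024, 273, 1199 and 702 CPM. The groups overlapped fully and the log2 fold change was -0.01 (SE 0.36, edgeR adjusted p = 0.984). Projectin (bt), the other large titin-like protein, was at -0.04 (SE 0.35, adjusted p = 0.952). The uninjured libraries spread 3.23-fold for sls and 2.89-fold for bt, while Mhc spread 1.16-fold and Msp-300 1.08-fold in the same libraries, and this difference was not tested.

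The ratio of sls to bt in TPM stayed between 0.579 and 0.669 over all 10 libraries. The ratio of Mhc to sls in TPM ran from 3.21 to 9.97 in uninjured and from 3.11 to 14.7 in injured libraries. It was highest in uninjured library 5 among the uninjured and in injured library 4 among the injured libraries, and lowest in injured library 3. Obscurin (Unc-89), an M line protein, and stretchin (Strn-Mlck), a myosin-associated protein, had log2 fold changes of 0.27 (SE 0.31) and 0.62 (SE 0.31).

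Msp-300, a nesprin that ties nuclei to the cytoskeleton, and Argk, arginine kinase, which buffers ATP in muscle and also in neurons, had log2 fold changes near 0. Msp-300 was at 12532, 12469, 12898, 12189 and 11903 CPM in uninjured libraries and at 10054, 13445, 13199, 13909.9 and 13247 CPM in injured libraries. Its log2 fold change was 0.04 (SE 0.11, edgeR adjusted p = 0.812). Argk was at 1990.1, 1869, 2066, 1907 and 2092 CPM and then at 2024, 1827, 1663, 1854 and 1907 CPM, and its fitted log2 change was -0.10 (SE 0.07, edgeR adjusted p = 0.352).

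Per length, Argk had the highest level of the members (mean 532 TPM over the 10 libraries) and Msp-300 the second (195 TPM), followed by Mlc2 (175 TPM), Act88F (81.5 TPM), Mhc (64.6 TPM) and Act79B (57.9 TPM). Argk and Msp-300 held 58.8% to 89.5% of the members' counts. The order of Mhc and Act88F turned between the groups, which was not tested. Mhc averaged 42.9 TPM in uninjured and 86.3 TPM in injured libraries, and Act88F 32.2 and 131 TPM.

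The 7 Z disc and LIM domain members had log2 fold changes from -0.27 to 0.57. Zasp52, a PDZ and LIM protein of the Z disc, had the largest log2 fold change of this group, 0.57 (SE 0.27, edgeR adjusted p = 0.154). It was the only member that passed when the column number was used as a replicate block (log2 fold change 0.52, adjusted p = 0.00997), a fit that called 6.61% of all genes higher and 5.88% lower. Its relatives Zasp66 and Zasp67 had 0.47 (SE 0.29) and 0.22 (SE 0.18). The muscle LIM proteins Mlp84B and Mlp60A had -0.27 (SE 0.30) and 0.02 (SE 0.35), the TRIM protein thin (tn) had 0.28 (SE 0.25), and the calponin-like Mp20 had 0.10 (SE 0.34). Mp20 ranged from 6.8 to 13.7 CPM in uninjured and 3.4 to 17.6 CPM in injured libraries.

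Over the 30 tested members the median log2 fold change was 0.47, while the median over all genes tested was 0.00. The log2 fold change was above 0 in 23 members and below 0 in 7, and it was 1 or more in 4 members and in 2.82% of all genes tested. The highest medians were those of the thick filament (0.95) and thin filament members (0.78), ahead of the Z disc and LIM group (0.22) and the giant linkers (0.04). The median over the members was 0.59 without injured library 3 and 0.13 without injured library 4.

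**Figure D4:**
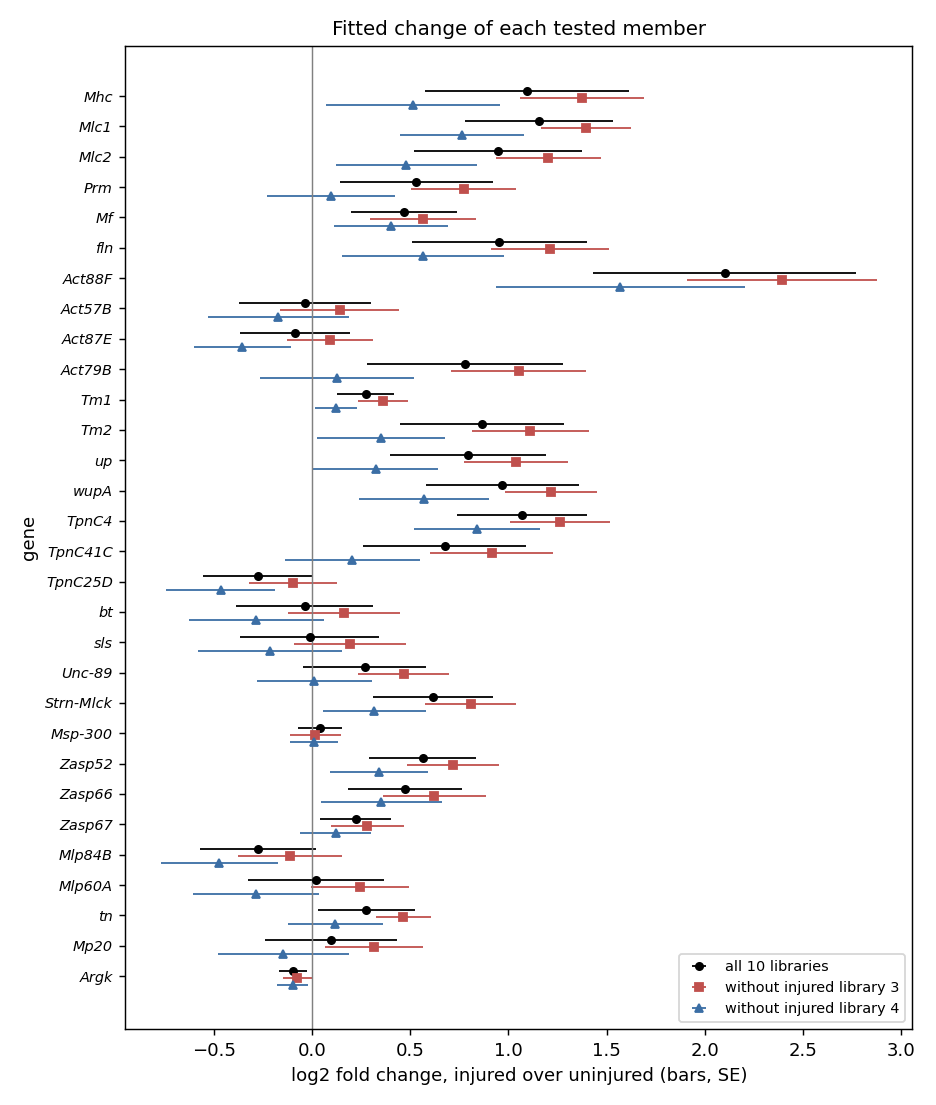
Log2 fold change of each tested member, injured over uninjured, with its SE, from edgeR fits on all 10 libraries (black), without injured library 3 (red) and without injured library 4 (blue). Act88F is highest in each fit at 2.10, 2.39 and 1.57, and most members move up when library 3 is left out and down when library 4 is left out.

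Leaving out injured library 3 brought 6 members past the threshold, all higher after injury: Mhc, Mlc1, Mlc2, Act88F, wupA and TpnC4. In that fit 6.36% of all genes tested were called higher and 5.33% lower. Leaving out injured library 4 brought 0 members past it (edgeR), where 6.2% of all genes were called higher and 4.72% lower. With both left out, the 3 members Mlc1, Mlc2 and wupA passed, beside 5.54% of all genes called higher and 3.53% called lower, and Mhc had an adjusted p of 0.0104. Both libraries were singled out with their member levels known, library 3 in the question and library 4 after its values were seen, so these counts describe how the result hangs on them.

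With all libraries, 0 of 30 members had every injured library above every uninjured library, beside 8.8% of all genes tested, and 0 had every injured library below, beside 7.73%. Without injured library 3, the 9 members Mhc, Mlc1, Mlc2, Act88F, Tm2, up, wupA, TpnC4 and tn had all remaining injured libraries above every uninjured library, beside 10.0% of all genes, and 0 had them below, beside 9.0%. Without injured library 4 the number was 0 above, beside 9.44%, and 0 below, beside 8.4%. Injured library 3 lay below every uninjured library in 24 of 30 members (26.4% of all genes) and injured library 4 above every uninjured library in 26 of 30 (31.0% of all genes).

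The spread among injured libraries was wide for most members. The SD of log2 CPM was larger in the injured than in the uninjured libraries in 29 of 30 members, the exception being Mlp84B, beside 60.9% of all genes tested. The median SD of the members was 0.37 in uninjured and 0.80 in injured libraries, while that of all genes was 0.14 and 0.17. Mhc, Tm1, Msp-300 and Argk, with SDs of 0.09, 0.09, 0.04 and 0.07 in uninjured libraries, were below that median of all genes, and Argk was below it in injured libraries too. The lowest SD among injured libraries was that of Argk (0.10) and the highest that of Act88F (1.91).

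Summed over all 32 members, the level was 17764, 19436, 19318, 18467 and 17115 CPM in uninjured and 16665, 21846, 16611, 26801 and 20657 CPM in injured libraries. This sum mostly reflects Msp-300 and Argk. Without these genes, a choice made after their levels were seen, the sum was 3241, 5098, 4354, 4371 and 3119.96 CPM in uninjured libraries and 4588, 6574, 1749, 11037 and 5502 CPM in injured libraries. Injured library 4 held 6.31-fold the sum of injured library 3, and the uninjured libraries differed by at most 1.63-fold. The mean was 4037 ± 839 CPM (SD, n = 5) in uninjured and 5890 ± 3390 CPM (SD, n = 5) in injured libraries, a ratio of 1.46, which became 1.72 without injured library 3 and 1.14 without injured library 4. As a share of all gene counts, the 30 genes took 0.307% to 0.519% in uninjured and 0.174% to 1.07% in injured libraries.

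Other gene lists were read in the same libraries. Their counts of called genes stand beside 7.55% of all genes tested called higher and 6.13% called lower (edgeR). Of 17 tested genes with other roles in muscle, 4 rose and 1 fell. The largest rises were those of mys (log2 fold change 0.92, SE 0.05), which encodes a beta integrin, rhea (0.51, SE 0.07), which encodes talin, and stck (0.42, SE 0.05), which encodes the PINCH adaptor of integrin adhesions. These are adhesion genes that many tissues express. Injured library 3 was the highest of all libraries in mys and rhea, and the lowest of the injured libraries in stck (73.1 CPM). The other gene that rose was Mef2 (myocyte enhancing factor 2), by 0.28 (SE 0.05), highest in injured library 4 (190 CPM). Its highest edgeR adjusted p with 1 library left out was 0.0109. GluRIIA, a glutamate receptor of the neuromuscular junction, fell by 0.42 (SE 0.09), a call that was lost when uninjured library 1, 3 or 5, or else injured library 2, 4 or 5, was left out. Of the 17 genes, 6 were lowest of the injured libraries in library 3 and 8 were highest in library 4. Actn, alpha-actinin of the Z disc, was among both, from 66.8 CPM in injured library 3 to 217 CPM in injured library 4, with a log2 fold change of 0.42 (SE 0.24, edgeR adjusted p = 0.220).

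Of 7 genes of the non-muscle actomyosin list, which also holds the actin-binding proteins tsr (cofilin) and chic (profilin), 5 rose, with Mlc-c (a myosin light chain) at 0.89 (SE 0.08), Act42A (a cytoplasmic actin) at 0.77 (SE 0.08) and sqh (the non-muscle regulatory light chain) at 0.73 (SE 0.07). Their summed level was 2039 to 2312 CPM in uninjured and 2801 to 3689 CPM in injured libraries, so the groups did not overlap. Of all single genes tested, 8.8% had every injured library above every uninjured library. Injured library 4 held the lowest sum of the injured libraries. The highest was in injured library 3 in CPM (3689), a sum made up mostly of Act5C, and in injured library 1 in TPM (965, beside 925 in injured library 3).

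Of 12 markers of neurons, edgeR, DESeq2 and limma-voom called 0, with 2 higher and 0 lower at an unadjusted p under 0.05 in each and 2 rising without injured library 1, and with a summed level of 19678 to 25694 CPM in uninjured and 20159.7 to 25622 CPM in injured libraries. The marker with the most counts, futsch, a microtubule-associated protein of axons, differed by 0.02 on the log2 scale (SE 0.11, edgeR adjusted p = 0.901). Of 10 glial markers 2 rose and 3 fell, with e (ebony, which joins beta-alanine to transmitter amines) at 2.33 (SE 0.13), Mdr65 (a transporter of the blood-brain barrier) at -1.85 (SE 0.20) and wrapper (a cortex glia protein) at -0.89 (SE 0.11). Among the injured libraries, e was highest in library 3 (832 CPM, beside 586 to 668 CPM in the others), and wrapper was highest in library 3 (72.5 CPM) and lowest in library 4 (44.7 CPM), while the summed glial level lay at 6374 and 6507 CPM in these libraries, within the range of the other injured libraries.

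Markers of other tissues that can stay attached to a dissected VNC were read as well. Tendon and tracheal markers each had 2 genes tested and 0 called by edgeR, DESeq2 or limma-voom, with 1 tendon marker lower at an unadjusted p under 0.05 in edgeR and past the threshold without uninjured library 4. The tendon gene sr (stripe) had a log2 fold change of -0.66 (SE 0.22, edgeR adjusted p = 0.0487). Among injured libraries sr was highest in library 3 (164 CPM) and lowest in library 4 (107 CPM). The other tested tendon gene, how (held out wings), was lowest in injured library 3 (43.1 CPM) and highest in injured library 4 (68.8 CPM). Its log2 fold change was -0.01 (SE 0.11). The tracheal gene btl, the FGF receptor of tracheal cells, was lowest in injured library 3 (9.24 CPM). Its highest injured level was in library 4 (14.3 CPM). The other tested tracheal gene, trh (trachealess), was also highest of the injured libraries in library 4 (33.7 CPM). Its lowest injured level was in library 5 (28.2 CPM), beside 28.9 CPM in library 3. Of 5 fat body markers, 3 were lowest in injured library 3 among the injured libraries. One of them, Fbp1, a storage protein receptor of the fat body, was at 1.30 CPM in injured library 3 and 1322 CPM in injured library 5, and at 1.61 to 289 CPM in uninjured libraries. Of the fat body markers only apolpp, the lipophorin precursor, fell, by 0.88 (SE 0.15). Of 6 hemocyte markers 4 fell, the largest change being that of Sr-CI, a scavenger receptor, at -1.91 (SE 0.30), and 0 rose at an unadjusted p under 0.05 as well (edgeR). Without uninjured library 2, or injured library 3, 4 or 5, the falls that passed were 2. The part of these other tissues in the levels of the sarcomere genes was not tested.

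**Figure D5:**
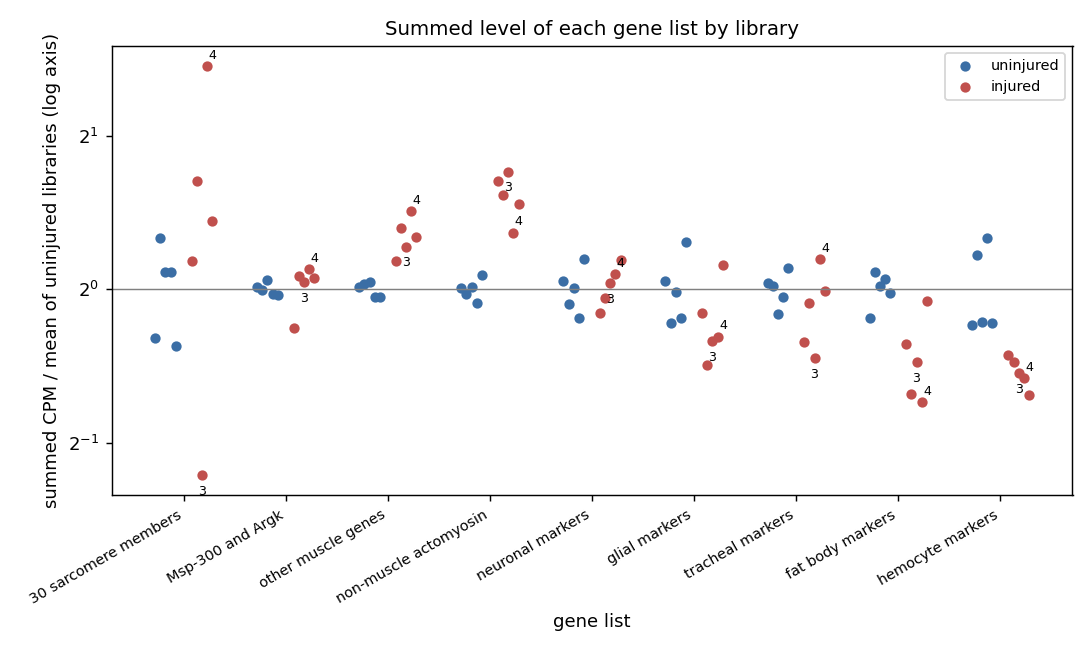
Summed CPM of each gene list except the tendon markers in each library, divided by the mean of the uninjured libraries, on a log axis. Uninjured libraries are blue and injured libraries red, with injured libraries 3 and 4 numbered. The 30 sarcomere genes range from 1749 to 11037 CPM in injured libraries, and the neuronal markers from 20159.7 to 25622 CPM.

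Genes outside all lists were ranked by how closely they followed the summed level of the 30 members, as the Pearson correlation of log2 CPM after the mean of each group was taken off, over 10 libraries and 7162 genes with a mean of 10 CPM or more. The 10 most alike were crossveinless c, Plp, l(2)efl, jbug, CG9297, CG2017, CG32355, ry, baz and Asph, with coefficients from 0.976 down to 0.923. The coefficients rest largely on injured libraries 3 and 4, all libraries share 1 lane, and they are given as a description. Among these genes l(2)efl, a small heat shock protein, was at 4.05 CPM in injured library 3 and 24.3 CPM in injured library 4, beside 4.51 to 8.58 CPM in uninjured libraries. Jitterbug (jbug), a filamin-type actin-binding protein, was at 48.2 and 84.5 CPM in these injured libraries. Ranking by the sum of all 32 members gave 0 of the same 10 genes.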

How the data were processed

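The authors aligned single reads of 100 bases to the Drosophila genome with GeneSifter, which ran BWA, and tool versions were not given in the sources used here. The estimated counts they deposited for each gene differed from whole numbers by at most 0.00063 and were rounded. The values the authors call TPM follow the RPKM formula on the longest transcript and served for the filter, for levels between genes and for alternatives. Of 14352 genes, 1 with a value that was not numeric was left out. No library column was left unused (0). The authors' own fold changes and p-values, the quality sheets and correlation sheets were not used.

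The test was edgeR 4.0.16 in R 4.3.3 (quasi-likelihood, TMM factors 0.968 to 1.04, no covariates) on 9365 genes, with limma 3.58.1 (voom, or log2 of TPM plus 0.5 or 1) and DESeq2 1.42.0 as alternatives, and other normalizations, filters, thresholds, left-out libraries and a block by column number. Each library was a separate pool of flies, described by the authors as a biological replicate, and the p-values cover the spread between these pools. Counts were also simulated for this comparison (9365 genes, 50 changed at each size). On them edgeR recovered 23 of those at 1.5-fold, 39 at 2-fold, 48 at 4-fold and 49 at 10-fold. It made 0 calls among 9165 unchanged genes. The changed genes were drawn at random from all genes tested, each with its own fitted spread. The median SD of log2 CPM in injured libraries was 0.80 for the members and 0.17 for all genes. These recoveries therefore do not apply to the members.

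Of the members, 24 matched by current symbol, 2 by synonym and 6 by older gene ID. The members, the other lists (71 genes, all matched) and the rule for named genes were chosen with earlier results of these data known. Values per library are given for members passing the test, the 6 members with the highest mean TPM, Mhc, and the genes of flight and jump muscle (Act88F, fln, TpnC4, Act79B, TpnC41C). Mlc1, wupA and sls were added after their values were seen. In the other lists up to 3 called genes with the largest change are named, or the gene with the highest CPM where none was called. Actn, Mef2, btl, how, GluRIIA and Fbp1 were added after their values were seen. No sequence or coordinate is given, since no sequence of the counted build was used here.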

Additional observations from a re-analysis of the deposited data

Results flagged for a closer look

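In 64 groups of 5 libraries (31 members with 10 or more counts in some library and the sum of 30 members, in each group), 3 had a library whose gap to the nearest other exceeded 0.71 of the range, where chance gives about 1 in 20. Act57B was at 113 CPM in uninjured library 2, beside 41.2 to 46.9 CPM in the others. Flightin (fln) was at 44.2 CPM in uninjured library 5, beside 26.3 to 29.3 CPM. Msp-300 was at 10054 CPM in injured library 1, beside 13199 to 13909.9 CPM. Injured libraries 3 and 4, which lie at both ends for most members, were not singled out in this way.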

How the results depend on the processing

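The count of members higher after injury was 0 in the main test and 0 under the other normalizations, filters and tools, and became 3 at an adjusted p under 0.05, 1 with the column number as a replicate block, and 3 without injured libraries 3 and 4 (an alternative added after seeing the data). Leaving out 1 library gave 0 to 6 members higher (6 without injured library 3) and 0 lower. Over all genes, leaving out 1 library gave 531 to 873 higher and 442 to 683 lower, a threshold of 0.05 gave 1165 and 1073, a further 2-fold minimum gave 223 and 212, and without injured libraries 3 and 4 there were 331 lower. Same-numbered columns deviated together with correlations of -0.15 to 0.27, over 0.1 in 3 of 5 pairs. Columns of different number had correlations of -0.21 to 0.19. Whether the numbers pair the samples cannot be told from these values. The median over the members was 0.13 to 0.60 with 1 library left out, 0.25 with limma-voom and 0.21 on log2(TPM + 0.5) and log2(TPM + 1). The log2 ratio of the summed level was 0.16, from 0.04 to 0.22 with 1 library left out, 0.33 on TPM and 0.54 without Msp-300 and Argk.

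Signs turned in members near 0. With 1 library left out the log2 fold change ran from -0.17 to 0.34 for Act57B, -0.35 to 0.094 for Act87E, -0.28 to 0.25 for Mlp60A, -0.14 to 0.32 for Mp20, -0.28 to 0.16 for bt and -0.21 to 0.19 for sls. Without injured libraries 3 and 4 it was 0.057 for Act57B, -0.0047 for Mlp60A, -0.017 for Msp-300 and 0.050 for sls. Mlp60A was also at -0.0050 with column totals, -0.17 with limma-voom, -0.16 and -0.13 on log2(TPM + 0.5) and log2(TPM + 1), and -0.054 with the block. Mp20 was at -0.054 with limma-voom and -0.058 and -0.045 on the TPM scales, Msp-300 at -0.025 on both, and sls at 0.0086 without the filter. The cause was not tested. Of 630 member values under alternatives, 584 kept direction and side of the threshold, 36 turned and 10 passed it. Depth limits TpnC73F (6 to 23 counts per library) and TpnC47D, while Mhc spread 20.8-fold among injured libraries.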
